A study of Arabidopsis thaliana with 12 samples.

Results

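The comparison described here asks which transcripts differ after GFP-TFIIS is switched on in Arabidopsis thaliana seedlings that lack intact TFIIS. All seedlings were ecotype Columbia in the tfIIs-1 (SALK_056755) background, a line with a T-DNA insertion in the TFIIS gene, and were 10 days old. TFIIS induced seedlings carried an estradiol-inducible GFP-TFIIS transgene and received 2 mM estradiol, as the labels give it, for 24 h. TFIIS mock seedlings carried the same transgene and received ethanol. TFIISmut induced and TFIISmut mock seedlings carried an inducible GFP-TFIISmut transgene, a mutated form whose changes the labels do not state, and were treated likewise. The labels give neither the promoter that drives the activator nor whether a line is a single transformant. Each group had 3 libraries of polyadenylated RNA, which the authors combined into 1 value per gene. The values below therefore carry no error, and no difference was tested against the spread between seedlings. Which column holds which group was read from abbreviated column names that no label spells out, and every group name below rests on that reading.

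Of 32705 rows in the deposited table, 14203 entered the comparison, 14163 of them nuclear and 40 of the organelle genomes. A row entered when its identifier was unique, when it was above 0 in both TFIIS pools and when its larger value reached 5 FPKM, a fragment count scaled to transcript length and library size. At that minimum, BGLU46 at 5.0003 FPKM stood just inside and STIPL2 at 4.996 FPKM just outside. Differences are those of log2(FPKM + 1), TFIIS induced minus TFIIS mock, and a row is called higher or lower from a difference of 1, called 2-fold here. This scale understates the differences of low genes. A row that reaches 5 FPKM in only 1 pool enters through the pool where it is higher, which can raise the shares called in the lists below. Nuclear rows had a median difference of 0.018 and 94.4% lay within 0.5 of 0. Of them 60, or 0.424%, were higher and 112, or 0.791%, lower. The pools sum to 1030085 FPKM in TFIIS induced and 903971 FPKM in TFIIS mock, and 13837 and 13917 rows reached 5 FPKM. Reads per library are unknown.

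TFIIS is a transcript elongation factor that binds RNA polymerase II when it has backtracked and stalled, and stimulates the polymerase to cleave its own nascent RNA so that synthesis can go on. Abscisic acid is the hormone of drought and of seed dormancy. It binds PYR/PYL receptors, which then block the clade A PP2C phosphatases, and this frees SnRK2 kinases to activate ABF transcription factors at promoters with ACGTG elements. Cold and drought also act through CBF/DREB factors, which bind CCGAC elements.

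TFIIS itself (AT2G38560) stood at 742 FPKM in TFIIS induced and 21.1 FPKM in TFIIS mock, a difference of 5.07. It was at 87.0 FPKM in TFIISmut induced and 17.58 FPKM in TFIISmut mock. This row cannot separate transgene reads from those of the native gene with its insertion. Partners of TFIIS in elongation did not reach the 2-fold rule: of 24 eligible elongation factor genes, TFIIS was the 1 called. The Paf1 complex gene VIP5 was at 14.1 FPKM in TFIIS induced and 11.0 FPKM in TFIIS mock, and NRPB1, the largest subunit of RNA polymerase II, at 25.4 and 23.2 FPKM in the same order. The list median was 0.08. It was -0.09 when organelle rows were left out and nuclear rows rescaled so that both pools had a common sum. That common sum includes AT2G01021, a row described below that was far higher in TFIIS induced than in TFIIS mock. DOG1 and FLC, a dormancy gene and a flowering repressor listed because they are reported to need TFIIS, did not reach the 5 FPKM minimum, with DOG1 at 1.43 FPKM in TFIIS induced and 1.03 FPKM in TFIIS mock.

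Among the lowest nuclear genes were effectors of abscisic acid, drought and cold, proteins that protect cells from water loss. Of 26 listed effectors 25 were eligible, and 19 of them were 2-fold or more lower, against 0.791% of nuclear rows, and none was higher. Effectors that reached 5 FPKM only in TFIIS mock, such as LTI65, entered through the pool where they were high, which can raise the share of lower effectors. The list median was -2.38, and 24 of 25 lay below 0. With no minimum FPKM the list median was -2.32. Promoters of 4 of these genes are shown first, because they carry the elements named above, together with the promoter of ASN1, a gene that was higher. Each is the 250 bases before the annotated start, 5′ to 3′ on the gene's strand, from the TAIR10.1 genome with RefSeq annotation, and capitals mark ACGTG and CCGAC on either strand.
RAB18, chr5:26519448-26519697, minus strand: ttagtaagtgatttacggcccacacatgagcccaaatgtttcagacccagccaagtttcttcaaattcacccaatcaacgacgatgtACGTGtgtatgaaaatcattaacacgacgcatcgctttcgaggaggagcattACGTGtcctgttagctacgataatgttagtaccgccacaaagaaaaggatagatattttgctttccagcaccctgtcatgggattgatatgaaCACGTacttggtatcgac
COR15A, chr2:17712331-17712580, minus strand: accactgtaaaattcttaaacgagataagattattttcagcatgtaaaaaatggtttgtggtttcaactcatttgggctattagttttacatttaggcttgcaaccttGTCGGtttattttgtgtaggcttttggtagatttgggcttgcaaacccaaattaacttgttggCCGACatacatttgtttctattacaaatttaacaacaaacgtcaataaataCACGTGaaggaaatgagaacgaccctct
LTI78, chr5:21240467-21240716, plus strand: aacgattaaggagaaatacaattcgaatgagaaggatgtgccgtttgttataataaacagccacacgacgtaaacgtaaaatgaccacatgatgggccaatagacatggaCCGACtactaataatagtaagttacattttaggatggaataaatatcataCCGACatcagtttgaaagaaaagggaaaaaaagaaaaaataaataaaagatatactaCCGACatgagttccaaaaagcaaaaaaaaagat
LTI65, chr5:21236771-21237020, plus strand: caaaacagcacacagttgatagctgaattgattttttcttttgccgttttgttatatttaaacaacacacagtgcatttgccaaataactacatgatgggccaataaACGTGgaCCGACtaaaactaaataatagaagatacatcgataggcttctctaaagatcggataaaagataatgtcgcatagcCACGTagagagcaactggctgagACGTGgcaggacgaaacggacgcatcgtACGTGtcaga
ASN1, chr3:17441432-17441681, minus strand: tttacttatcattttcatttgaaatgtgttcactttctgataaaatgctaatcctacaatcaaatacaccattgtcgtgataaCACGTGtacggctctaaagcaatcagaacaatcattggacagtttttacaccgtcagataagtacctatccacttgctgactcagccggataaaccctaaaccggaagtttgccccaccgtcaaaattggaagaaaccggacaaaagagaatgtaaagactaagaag
RAB18 has 3 ACGTG and no CCGAC, LTI78 has 3 CCGAC and no ACGTG, and LTI65 has 4 ACGTG and 1 CCGAC. COR15A has 2 CCGAC and a CACGTG, which holds ACGTG on both strands, and ASN1 also has a CACGTG. The windows of RAB18 and ASN1 overlap another annotated gene.

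Of the 103 protein-coding genes that were lower, 48 (46.6%) had ACGTG on either strand of this window, against 3239 of 13886 eligible protein-coding genes (23.3%). Among the 45 higher protein-coding genes 9 (20%) had it. CCGAC was found in 22 of the lower genes (21.4%), in 4 of the higher genes (8.89%) and in 13.4% of all eligible genes. TTGAC, the core of the elements that WRKY factors bind, was found in 49.5% of the lower genes, in 35.6% of the higher genes and in 44.6% of all. Among the effectors, 15 of 25 had ACGTG and 9 of 25 had CCGAC. A match describes these letters in this window and is not shown to be a bound site.

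RAB18, a dehydrin, was at 2.39 FPKM in TFIIS induced, 119 FPKM in TFIIS mock, 6.76 FPKM in TFIISmut induced and 1.78 FPKM in TFIISmut mock. LEA7 (AT1G52690), a late embryogenesis abundant protein, stood at 1.91 FPKM in TFIIS induced, 45.8 FPKM in TFIIS mock, 3.69 FPKM in TFIISmut induced and 1.21 FPKM in TFIISmut mock. In both genes the TFIIS mock pool stood far above the other 3, which were at 6.76 FPKM or less. KIN1, a cold-induced protein, had 18.4 FPKM in TFIIS induced, 120.4 FPKM in TFIIS mock, 19.7 FPKM in TFIISmut induced and 7.91 FPKM in TFIISmut mock. LTP3, a lipid transfer protein, had 21.1 FPKM in TFIIS induced, 131 FPKM in TFIIS mock, 32.2 FPKM in TFIISmut induced and 22.7 FPKM in TFIISmut mock. COR15B, a chloroplast protein of the cold response, had 76.4 FPKM in TFIIS induced, 401 FPKM in TFIIS mock, 30.2 FPKM in TFIISmut induced and 51.7 FPKM in TFIISmut mock. LTI65 (RD29B), a desiccation-responsive protein, was at 0.519 FPKM in TFIIS induced, 18.8 FPKM in TFIIS mock, 0.334 FPKM in TFIISmut induced and 0.110 FPKM in TFIISmut mock. For these genes too the high pool was TFIIS mock. With the TFIISmut mock pool as the control for TFIIS induced, the effector median was 0.18 in place of -2.38, so the low values of this list rest on the TFIIS mock pool. With 1 pool per group, an effect of induction and a difference of the TFIIS mock pool itself cannot be told apart.

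Members of the list that were close to 0 included ALDH7B4, an aldehyde dehydrogenase, at 108 FPKM in TFIIS induced and 114 FPKM in TFIIS mock, and GOLS1, which makes galactinol, at 6.58 and 5.50 FPKM in the same order. Effectors of intermediate size were RD22, at 67.4 FPKM in TFIIS induced and 154 FPKM in TFIIS mock, and the dehydrin ERD10, at 74.0 and 169 FPKM in the same order. Dehydrins of the same family thus differed in size: ERD14 had 226 FPKM in TFIIS induced and 308 FPKM in TFIIS mock, a difference of -0.44. Other low genes outside the list belong to related families. AT3G02480, a LEA family protein, was at 4.32 FPKM in TFIIS induced and 134.7 FPKM in TFIIS mock, and AT3G17520, also of the LEA family, at 0.285 and 6.03 FPKM in the same order. AT3G03341, annotated as a cold-regulated protein, was at 0.781 FPKM in TFIIS induced and 20.002 FPKM in TFIIS mock.

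**Figure D1:**
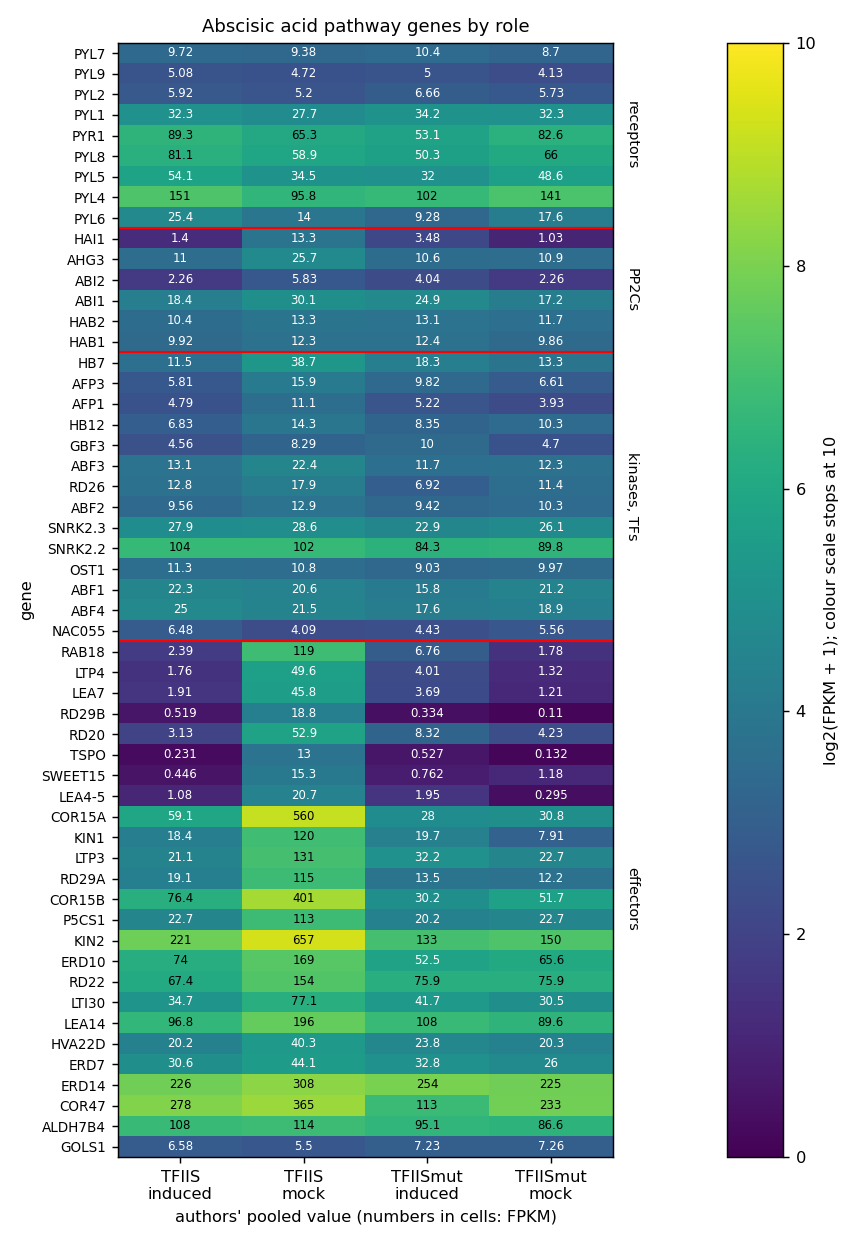
Abscisic acid pathway genes in the 4 pools. Colour is log2(FPKM + 1) and the numbers are FPKM; columns are TFIIS induced, TFIIS mock, TFIISmut induced and TFIISmut mock, and red lines separate receptors, PP2C phosphatases, kinases with transcription factors, and effectors. The TFIIS mock column is the bright one among the effectors, for example 119 FPKM for RAB18 against 2.39 FPKM in TFIIS induced.

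Upstream of the effectors, fewer genes were called, where 0.791% of nuclear rows were lower. Of 7 eligible genes of abscisic acid synthesis and breakdown, 1 was lower: NCED3, the rate-limiting dioxygenase of the drought response, at 0.954 FPKM in TFIIS induced, 6.94 FPKM in TFIIS mock, 0.934 FPKM in TFIISmut induced and 0.911 FPKM in TFIISmut mock. The TFIIS mock pool was again the high one. All 9 receptor genes lay above 0 (7 of 9 under the common sum) without reaching 2-fold, with a median of 0.44, and 0.14 against the TFIISmut mock pool. PYL6 had 25.4 FPKM in TFIIS induced and 14.0 FPKM in TFIIS mock, and PYL4 had 151 and 95.8 FPKM in the same order. The TFIISmut pools had 9.28 FPKM after induction and 17.56 FPKM in mock for PYL6.

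The 6 eligible PP2C phosphatase genes, negative regulators of the pathway that abscisic acid itself raises, all lay below 0. Of the 6, 3 were 2-fold or more lower, against 0.791% of nuclear rows. HAI1 was at 1.40 FPKM in TFIIS induced, 13.3 FPKM in TFIIS mock, 3.48 FPKM in TFIISmut induced and 1.03 FPKM in TFIISmut mock. PP2CA (AHG3) had 11.0 FPKM in TFIIS induced, 25.7 FPKM in TFIIS mock, 10.6 FPKM in TFIISmut induced and 10.9 FPKM in TFIISmut mock. ABI2 was the third of them, at 2.26 FPKM in TFIIS induced and 5.83 FPKM in TFIIS mock. HAI1 and ABI2 reached 5 FPKM in TFIIS mock but not in TFIIS induced, so the minimum can raise the share of lower PP2C genes. The list median was -0.88, and 0.012 against the TFIISmut mock pool. With no minimum FPKM it was -0.68.

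Of 14 eligible kinase and transcription factor genes 3 were lower, against 0.791% of nuclear rows. ATHB-7, a homeodomain factor induced by drought, was at 11.5 FPKM in TFIIS induced, 38.7 FPKM in TFIIS mock, 18.3 FPKM in TFIISmut induced and 13.3 FPKM in TFIISmut mock. AFP3 and AFP1, which bind ABI5, were the others, with AFP3 at 5.81 FPKM in TFIIS induced and 15.9 FPKM in TFIIS mock. The SnRK2 kinase genes were near 0 in difference, from -0.04 for SnRK2.3 to 0.06 for OST1. ABF3 had 13.1 FPKM in TFIIS induced and 22.4 FPKM in TFIIS mock, a difference of -0.72, and ABF4 had 25.01 and 21.5 FPKM in the same order.

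Several lower genes lie side by side in the genome. Of the 103 lower protein-coding genes, 14 form 7 pairs within 10000 bases, and none of the 45 higher protein-coding genes pairs with another. RNA genes and pseudogenes were left out of this count. A larger set holds more pairs by its size alone, and the share of paired genes over all eligible genes was not computed. The counts therefore do not set lower genes apart from higher ones. COR15B and COR15A lie 7 bases apart, KIN1 and KIN2 892 bases, LTI65 and LTI78 1185 bases, and LTP4 and LTP3 2996 bases. The members of the COR15, KIN and LTP pairs are similar copies, and the sources used here do not say how the authors split reads between copies.

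The highest list median belonged to sugar starvation genes, which are raised when carbon is short through the kinase SnRK1 and bZIP factors. All 8 eligible members lay above 0 and 4 of 8 were 2-fold or more higher, against 0.424% of nuclear rows. The median was 1.02, and 0.84 when nuclear rows were rescaled to a common sum.

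ASN1, which makes asparagine as a nitrogen store, was at 39.2 FPKM in TFIIS induced, 9.50 FPKM in TFIIS mock, 8.10 FPKM in TFIISmut induced and 23.2 FPKM in TFIISmut mock. BCAT2, an aminotransferase of branched-chain amino acid breakdown, was at 14.0 FPKM in TFIIS induced, 4.46 FPKM in TFIIS mock, 8.61 FPKM in TFIISmut induced and 9.03 FPKM in TFIISmut mock. SEN1 (STR15), a senescence gene induced in the dark, was at 130 FPKM in TFIIS induced, 52.2 FPKM in TFIIS mock, 37.8 FPKM in TFIISmut induced and 105 FPKM in TFIISmut mock. BT1, a BTB and TAZ domain protein, was the fourth, at 133 FPKM in TFIIS induced, 61.7 FPKM in TFIIS mock, 16.1 FPKM in TFIISmut induced and 78.1 FPKM in TFIISmut mock. In each of the 4, TFIIS induced was the highest pool. The other 3 pools spread from 8.10 to 23.2 FPKM in ASN1 and from 4.46 to 9.03 FPKM in BCAT2. In SEN1 they spread from 37.8 to 105 FPKM, and in BT1 from 16.1 to 78.1 FPKM. Against the TFIISmut mock pool the list median was 0.48. The 4 members under 2-fold were DIN10, KINB1, BT2 and BT5, with differences of 0.94, 0.93, 0.47 and 0.21. Nitrate response genes, which BT1 and BT2 influence, had no member past 2-fold: the 15 eligible genes had a median of 0.15, which became -0.02 under the common sum.

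**Figure D2:**
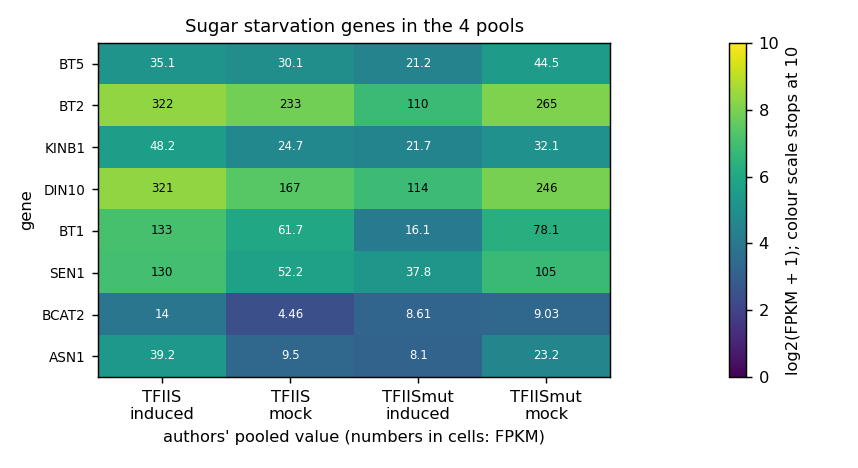
Sugar starvation genes in the 4 pools. Colour is log2(FPKM + 1), numbers are FPKM, and rows are ordered by the difference, smallest at the top. ASN1 in the last row had 39.2 FPKM in TFIIS induced against 9.50 FPKM in TFIIS mock.

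Other metabolic genes among the higher rows are given as single values, since all were picked for being higher: THA1 and MIOX4 are among the 20 largest differences, and POX1, BXL1 and MCCA were chosen after their values were seen. THA1, a threonine aldolase, had 6.28 FPKM in TFIIS induced and 1.23 FPKM in TFIIS mock, and MIOX4, which oxidises inositol, 5.53 and 1.01 FPKM in the same order. POX1, the proline dehydrogenase that degrades the osmolyte made by P5CS1, had 202 FPKM in TFIIS induced, 86.3 FPKM in TFIIS mock, 73.5 FPKM in TFIISmut induced and 137 FPKM in TFIISmut mock. BXL1, a cell wall xylosidase, had 145 FPKM in TFIIS induced and 55.3 FPKM in TFIIS mock. MCCA, of leucine breakdown, had 44.9 FPKM in TFIIS induced and 20.04 FPKM in TFIIS mock.

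Among the eligible rows of small RNA genes, more were higher than lower. Of 53 eligible rows of small RNA genes 11 were higher and 3 lower, against 0.424% and 0.791% of nuclear rows. The share was similar in the shortest protein-coding genes, a class of 52 rows, with 11 higher and 4 lower. Rows at 0 in either pool are not in these counts. Over nuclear and organelle rows together, 22 were at 0 in TFIIS induced and at 5 FPKM or more in TFIIS mock, and 20 the reverse. The 22 were all nuclear, and 15 of the 20 were. Small RNA genes were numerous on both sides, so the excess of higher rows holds for eligible rows only. It is not shown for small RNA genes as a whole. MIR171A was at 0 in TFIIS induced and 30.4 FPKM in TFIIS mock, and AT3G11395, a tRNA gene, at 47.0 and 0 FPKM in the same order. Small nucleolar RNAs guide the chemical modification of ribosomal RNA, and box C/D members carry the elements TGATGA and CTGA. The 3 with the largest differences are shown, from TAIR10.1 with RefSeq annotation, with a TGATGA near the start and the last CTGA in capitals.
AT3G27865, chr3:10328510-10328601, plus strand: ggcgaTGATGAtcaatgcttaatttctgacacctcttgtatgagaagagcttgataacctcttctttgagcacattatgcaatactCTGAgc
SNOR30, chr5:20795936-20796051, plus strand: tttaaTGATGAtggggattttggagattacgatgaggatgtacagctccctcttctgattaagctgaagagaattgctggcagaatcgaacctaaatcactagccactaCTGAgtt
AT3G24615, chr3:8979504-8979605, minus strand: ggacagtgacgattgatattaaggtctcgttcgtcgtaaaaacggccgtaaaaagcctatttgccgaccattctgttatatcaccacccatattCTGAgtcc
AT3G24615 has no TGATGA. AT3G27865 was at 84.9 FPKM in TFIIS induced, 3.25 FPKM in TFIIS mock, 19.1 FPKM in TFIISmut induced and 2.33 FPKM in TFIISmut mock. SNOR30 (AT5G51174) was at 59.7 FPKM in TFIIS induced, 4.15 FPKM in TFIIS mock, 3.33 FPKM in TFIISmut induced and 13.7 FPKM in TFIISmut mock. AT3G24615 was at 231 FPKM in TFIIS induced, 40.7 FPKM in TFIIS mock, 37.4 FPKM in TFIISmut induced and 33.4 FPKM in TFIISmut mock. In all 3 TFIIS induced was the highest pool. The libraries were made from polyadenylated RNA, and most snoRNAs lack a poly(A) tail.

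The row with the most FPKM in the table was AT2G01021, at 117382 FPKM in TFIIS induced, 14285.5 FPKM in TFIIS mock, 36710 FPKM in TFIISmut induced and 22162 FPKM in TFIISmut mock. It is annotated as protein-coding at chr2:6571-6672, 625 bases after the end of the 5.8S ribosomal RNA gene AT2G01020, within the ribosomal DNA of chromosome 2. It took 11.4% of all FPKM in TFIIS induced and 1.58% in TFIIS mock. AT3G41762 and AT3G41761, 811 and 1598 bases from the ribosomal RNA gene AT3G41768, were also higher. These rows were named by hand, and other rows near ribosomal DNA were not searched for. AT3G41762 was at 17.0 FPKM in TFIIS induced and 34.4 FPKM in TFIISmut induced, and AT3G41761 at 16.9 and 39.3 FPKM in the same order. The ribosomal RNA gene AT3G41768 itself was not eligible: it is listed at 0 in TFIIS induced and was at 67.1 FPKM in TFIIS mock, 228 FPKM in TFIISmut induced and 112 FPKM in TFIISmut mock. When nuclear rows, AT2G01021 among them, were rescaled to a common sum, the median nuclear difference was -0.15. Then 43 nuclear rows were higher and 156 lower, 21.6% higher against 34.9%. Without AT2G01021 and organelle rows, the pools sum to 901797 FPKM in TFIIS induced and 888559 FPKM in TFIIS mock. AT1G15405, an RNA of no annotated function, was at 1287 FPKM in TFIIS induced, 44.0 FPKM in TFIIS mock, 748 FPKM in TFIISmut induced and 76.4 FPKM in TFIISmut mock. Both induced pools were above both mock pools there.

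Chloroplast and mitochondrial rows formed a group apart from the nuclear ones. All 40 eligible organelle rows lay above 0 and 38 of 40, or 95.0%, reached 2-fold in the higher direction; their median was 3.04. Chloroplast rows had a median of 3.24 over 34 rows and mitochondrial rows 2.12 over 6. In 39 of the 40 the TFIIS induced pool was the highest of the 4; in the mitochondrial ORF149 it was TFIISmut mock, at 8.09 FPKM. A row enters only when it reaches 5 FPKM, so rows that reach it only in TFIIS induced can raise this share. Organelle rows took 1.06% of all FPKM in TFIIS induced, 0.125% in TFIIS mock, 0.185% in TFIISmut induced and 0.178% in TFIISmut mock. The libraries were made from polyadenylated RNA, so these values describe the organelle RNA that such libraries held. Whether the amount of organelle RNA in the seedlings differed was not tested.

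Some transfer RNA rows were among the highest. The row of TRNF and TRNL.1, for phenylalanine and leucine, was at 922 FPKM in TFIIS induced, 7.004 FPKM in TFIIS mock, 2.41 FPKM in TFIISmut induced and 15.5 FPKM in TFIISmut mock. TRNP, for proline, was at 1418 FPKM in TFIIS induced, 53.2 FPKM in TFIIS mock, 158 FPKM in TFIISmut induced and 356 FPKM in TFIISmut mock. TRNS.3, for serine, had 414 FPKM in TFIIS induced and 15.7 FPKM in TFIIS mock. Another 5 chloroplast tRNA rows, TRNQ, TRND, TRNT.1, TRNG.2 and TRNL.3, are listed at 0 in TFIIS mock and at 5 FPKM or more in TFIIS induced. The tRNA row TRNM, under the 5 FPKM minimum, was at 2.90 FPKM in TFIIS induced and 3.63 FPKM in TFIIS mock. Over the 9 eligible rows with only tRNA names the median difference was 3.65.

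The 8 eligible rows with only photosystem II names had a median difference of 4.07. PSBZ was at 63.1 FPKM in TFIIS induced, 1.26 FPKM in TFIIS mock, 1.24 FPKM in TFIISmut induced and 3.37 FPKM in TFIISmut mock. The row of PSBE, PSBF, PSBJ and PSBL, which encode cytochrome b559 and small subunits, was at 1022 FPKM in TFIIS induced, 50.2 FPKM in TFIIS mock, 202 FPKM in TFIISmut induced and 51.9 FPKM in TFIISmut mock. PSBN had 833 FPKM in TFIIS induced and 40.7 FPKM in TFIIS mock. RBCL, the large subunit of Rubisco, was at 213 FPKM in TFIIS induced, 13.9 FPKM in TFIIS mock, 15.5 FPKM in TFIISmut induced and 17.5 FPKM in TFIISmut mock. For RBCL the pools other than TFIIS induced lay between 13.9 and 17.5 FPKM, and for PSBZ between 1.24 and 3.37 FPKM. Joined rows hold several genes, and which gene the reads came from is not given.

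At the low end of the organelle rows were CLPP1 with RPL20 and rps12-B, at 24.3 FPKM in TFIIS induced and 15.9 FPKM in TFIIS mock, and the mitochondrial ORF149, at 6.498 and 3.41 FPKM in the same order. TRNH came next, at 603 FPKM in TFIIS induced and 283 FPKM in TFIIS mock. Nuclear genes whose products transcribe or degrade organelle RNA showed no member past 2-fold: 24 were eligible, 9 above and 15 below 0, with a median of -0.05. All 24 lay below 0 under the common sum, where the median of nuclear rows was itself -0.15. The sigma factor SIG4 had 25.6 FPKM in TFIIS induced and 31.0 FPKM in TFIIS mock, and the plastid polymerase RPOTP 26.5 and 25.8 FPKM in the same order. Organelle RNA and AT2G01021, the row within ribosomal DNA, were both high in TFIIS induced, and their part in each other's values was not tested.

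**Figure D3:**
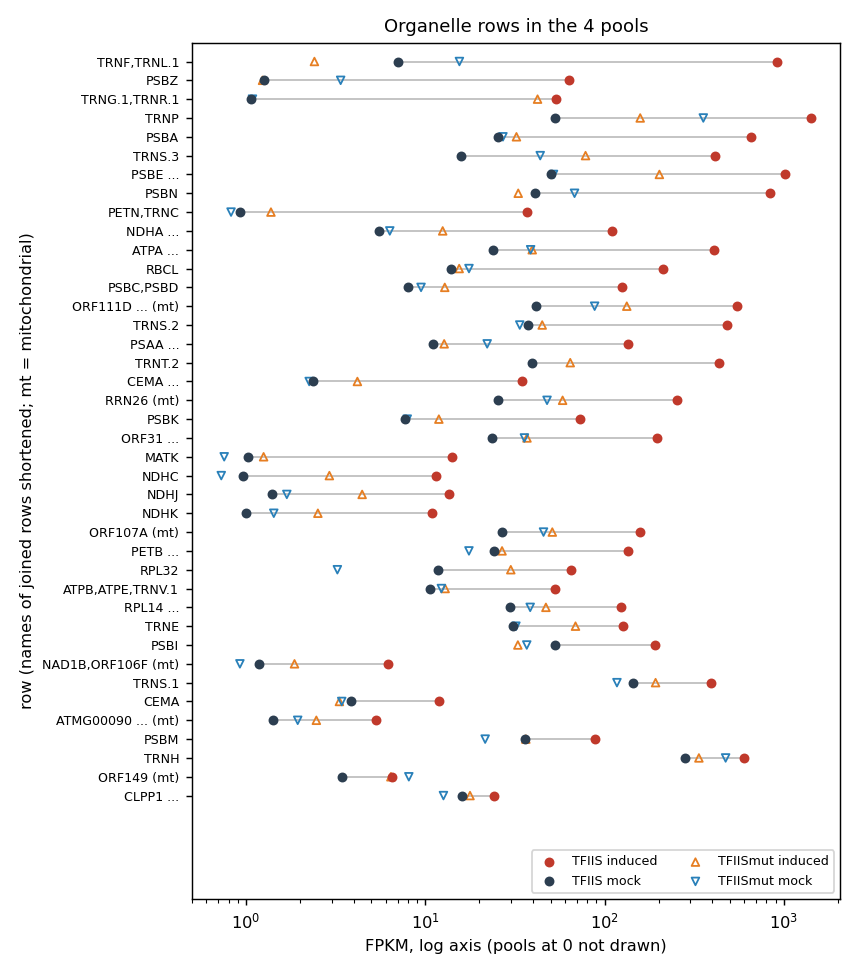
FPKM of the 40 eligible organelle rows on a log axis, ordered by difference, with TFIIS induced as filled red and TFIIS mock as filled dark points joined by a line, and the TFIISmut pools as open triangles. The TFIIS induced point is right of the TFIIS mock point in all 40 rows, from 922 against 7.004 FPKM for TRNF with TRNL.1 at the top to 24.3 against 15.9 FPKM for CLPP1 at the bottom.

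The other lists showed few 2-fold members, where 0.424% of nuclear rows were higher and 0.791% lower. Jasmonate genes, with a median of 0.02 that was -0.18 under the common sum, had VSP2, a storage protein, at 7.02 FPKM in TFIIS induced and 16.9 FPKM in TFIIS mock as the 1 lower of 12. Salicylic acid and defence genes had PR1 as the 1 lower of 9, and their median was -0.24. PR1 was at 2.89 FPKM in TFIIS induced, 8.44 FPKM in TFIIS mock and 2.41 FPKM in TFIISmut mock. Glucosinolate synthesis genes all lay below 0, 13 of 13, with a median of -0.27 and no 2-fold member; against the TFIISmut mock pool the median was -0.051. The detoxification genes of the xenobiotic list had a median of 0.18 over 9 members, which was 0.0082 under the common sum, and no 2-fold member, while the same list in the TFIISmut line had a median of 2.12; in that line 5.49% of nuclear rows were called higher and 1.67% lower. Circadian clock genes had a median of 0.09 over 13 members, which was -0.07 under the common sum. Only 3 cold regulators and 1 heat shock gene were eligible, with medians of -0.32 and -0.02. Auxin and cell division genes lay below 0 throughout, 5 of 5 and 8 of 8, with medians of -0.21 and -0.15.

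Tissue marker lists bear on the makeup of the seedlings. Root, vasculature and guard cell markers had medians of 0.06, -0.06 and -0.08 over 4, 5 and 4 genes. The root median was -0.10 under the common sum. Shoot and leaf markers lay below 0 in 6 of 6, with a median of -0.30, and no eligible marker reached 2-fold. The seventh of them, RBCS-1A, a small subunit of Rubisco, was not eligible: it is listed at 11039 FPKM in TFIIS induced and at 0 in TFIIS mock, and such a 0 can be a failed estimate. The 7 seed and embryo markers summed to 0.217 FPKM in TFIIS induced and 0.733 FPKM in TFIIS mock, and none was eligible. In bulk seedlings, fewer cells of a type and less RNA per cell cannot be told apart.

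**Figure D4:**
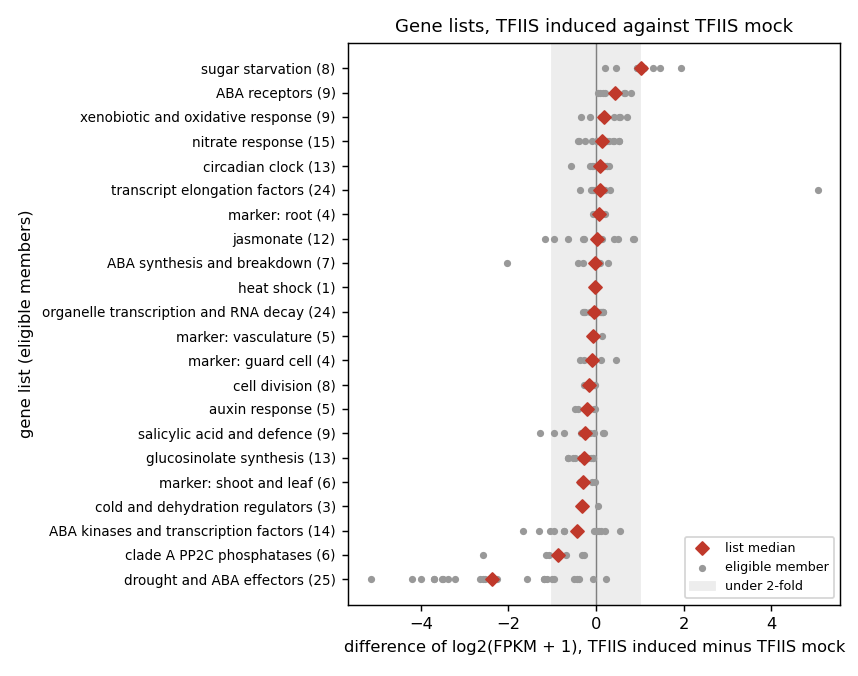
Difference of log2(FPKM + 1), TFIIS induced minus TFIIS mock, for each eligible member (grey) and the median (red diamond) of each list, with eligible members in brackets and the band under 2-fold shaded. Effectors at -2.38 and sugar starvation genes at 1.02 are the lists whose median lies outside the band; the lone point at 5.07 is TFIIS.

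Called genes were shorter than most. The 103 lower protein-coding genes had a median gene length of 1374 bp and the 45 higher ones 1285 bp, against 2447 bp over all 13887. Of the lower genes 25.2% and of the higher genes 40.0% had a single exon, against 10.8% of all. Differences also scatter more in short genes: the robust SD, a spread from the median absolute deviation, was 0.236 in the shortest quintile and 0.139 in the longest. Median differences were greater in longer genes, at -0.04, 0.00, 0.00, 0.02 and 0.07 from the shortest to the longest quintile. The shortest quintile held 57 of the lower and 26 of the higher genes. The part of gene length and of this scatter in the calls was not tested.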

How the data were processed

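Seedling RNA was sequenced from 12 libraries, 3 in each of 4 groups. The deposited table holds 1 FPKM value per gene and group, so the authors pooled libraries before depositing it; that the unit is FPKM was inferred from the table's layout and values, since no header or label names it. Per the submitters' processing notes, Bowtie2 2.3.5 was used; which counter, build and annotation were used is not stated there. The assignment of columns to groups is inferred from their names.

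From the values, differences of log2(FPKM + 1) were computed with pandas 2.3.3 in Python 3.11.15, for rows with a unique identifier, above 0 in both pools and at 5 FPKM or more in the larger; 38 rows with repeated identifiers were left out. Planned tests across libraries could not be made with pooled values. Promoters were read from TAIR10.1, where 32044 of 32045 matched nuclear rows overlap the gene of the same identifier. Stretches like the organelle genomes were found with BLAST+ 2.17.0. Reads per library are unknown. The calling step was tested on simulated data with changes larger than 2-fold in genes well above the 5 FPKM minimum, and with the same noise for every gene. That test does not show how reliable 2-fold calls near the minimum or in short genes are.

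The rows and the 24 gene lists, with 295 members of which 294 were in the table, were chosen with earlier results of these data known. Genes named are TFIIS, the 20 largest and 20 smallest nuclear differences, 10 largest and 3 smallest organelle ones, up to 8 members per list by size, and the rows at the 5 FPKM minimum; fewer are named. COR15B, RD22, ERD10, ERD14, ALDH7B4, GOLS1, KIN2, ABF4, the SnRK2 genes, RPOTP and RBCL were added after their values were seen, as were others so marked in the text.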

Additional observations from a re-analysis of the deposited data

Results flagged for a closer look

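In 6 list members the induced minus mock difference passed 2-fold in opposite directions in the GFP-TFIIS and the GFP-TFIISmut line, among 214 nuclear list members that met the 5 FPKM minimum in both lines. Over all 13763 nuclear rows that met it in both, 28 did so, or 0.203%. A further 4 members, LTP4, LEA7, LEA4-5 and HAI1, also passed 2-fold in opposite directions but stayed under 5 FPKM in the GFP-TFIISmut line. Each rests on 1 pooled value per group, and the difference between the lines was not tested. The TFIIS line minus the TFIISmut line came to -6.63 for RAB18, -3.86 for KIN1 and -7.24 for PR1, and to 3.31 for BT1, 2.75 for STR15 (SEN1) and 3.35 for ASN1. RAB18 and KIN1 were lower after GFP-TFIIS induction, by differences of -5.14 and -2.64, and higher after GFP-TFIISmut induction, by 1.48 and 1.22. PR1, a salicylic acid marker, had -1.28 in the GFP-TFIIS line and 5.96 in the GFP-TFIISmut line. RAB18 was at 119 FPKM in TFIIS mock, against 2.39 FPKM in TFIIS induced and 1.78 FPKM in TFIISmut mock. KIN1 was at 120.4, 18.4 and 7.91 FPKM in the same order, and PR1 at 8.44, 2.89 and 2.41 FPKM. The TFIIS row also differed between the lines, at 742 FPKM in TFIIS induced and 87.0 FPKM in TFIISmut induced. The parts of that difference and of the difference between the mock pools in these contrasts were not tested. ASN1, SEN1 and BT1, genes of carbon shortage, had 1.94, 1.30 and 1.101 in the GFP-TFIIS line and -1.41, -1.45 and -2.21 in the GFP-TFIISmut line.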

How the results depend on the processing

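No paired analysis was possible because the deposited table holds 1 pooled value per group, so replicate numbers, left-out libraries and limma fits could not be used and were not run. The counts and list medians were recomputed under 14 other settings, 2 of them chosen after seeing the data (protein-coding rows only, and rows without small RNA, ribosomal DNA and organelle-like sequence). Of 218 list medians 202 moved by less than 0.178, the robust SD of nuclear differences, and of 50 counts 43 stayed within 1.5 times. This tally is a weak check. Setting the nuclear median to 0 moves every list by the same 0.018, and the common sum moved most lists by a similar amount just under the limit. A median near 0 can also change sign within the limit, as that of elongation factors did under the common sum, at -0.09. With TFIISmut mock as control, 36 nuclear rows were lower instead of 112, and medians were 0.18 for effectors, which reversed, 0.14 for receptors, 0.012 for PP2C phosphatases, 0.091 for kinases and transcription factors, 0.042 for cold regulators, 0.48 for sugar starvation, 0.27 for salicylic acid, 0.29 for jasmonate and -0.051 for glucosinolates; the cause was not tested. Thresholds of 1.5-fold and 3-fold gave 231 and 23 nuclear rows higher and 320 and 43 lower. At a minimum of 20 FPKM 34 rows were higher and 48 lower, the kinase median was -0.0018 and the salicylic acid median -0.72; at 1 FPKM the synthesis median was -0.30 and the PP2C median -1.07, and with no minimum the PP2C median was -0.68. Under the common sum the jasmonate and heat shock medians were -0.18 and -0.28, over 13 and 2 eligible genes in place of 12 and 1. Depth is unknown, so how far counting error limits low genes was not computed.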

Other observations

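Among the lower rows, 3 genes known from nutrient shortage were picked after their values were seen, and no list of such genes was examined. SPX1, a regulator of the phosphate starvation response, was at 8.63 FPKM in TFIIS induced, 20.9 FPKM in TFIIS mock, 17.4 FPKM in TFIISmut induced and 29.0 FPKM in TFIISmut mock. PAP17, an acid phosphatase, was at 8.07 FPKM in TFIIS induced, 19.6 FPKM in TFIIS mock, 15.2 FPKM in TFIISmut induced and 18.5 FPKM in TFIISmut mock. LSU2, induced when sulfur is short, was at 13.6 FPKM in TFIIS induced, 31.8 FPKM in TFIIS mock, 29.3 FPKM in TFIISmut induced and 26.1 FPKM in TFIISmut mock. In these 3 genes TFIIS induced was the lowest pool. Also chosen after seeing the values, LHCB1.3, a light-harvesting protein gene, is listed at 9663 FPKM in TFIIS induced, 5739 FPKM in TFIISmut induced and 0 in both mock pools.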
